A study of Mus musculus with 6 samples.

Results

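The mitochondrial carrier family, named SLC25 after its gene symbols, was examined in group 2 innate lymphoid cells (ILC2s) of the mouse lung. Members were the protein-coding genes with a symbol of the form Slc25a and a number, together with Ucp2 and Ucp3, a rule that used names and no measured values. It found 49 of 39527 genes in the table. RNA was sequenced from 3 samples of R5/+ mice (WT) and 3 samples of R5/+ mice with floxed LKB1 alleles (R5/+LKB1f/f, KO), so that the R5 allele was carried by both groups. All samples followed 4 days of IL-33, an alarmin that activates ILC2s, and each pooled 3 to 4 mice. The labels give neither the age of the mice nor the promoter behind the R5 allele. LKB1, encoded by Stk11, is the kinase that activates AMPK and related kinases.

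Carriers of this family sit in the inner mitochondrial membrane, with a few exceptions, and pass metabolites, nucleotides, cofactors and ions between cytosol and matrix. They are built from repeats that share a signature sequence. Their activity sets how ATP leaves the matrix, how citrate reaches the cytosol for lipid synthesis, how reducing power moves in shuttles, and how amino acids, iron and glutathione enter. In activated lymphocytes these exchanges accompany growth and cytokine production.

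The values used were 1 log2 fold change, 1 standard error (SE), 1 p-value and 1 adjusted p per gene, from the authors' comparison of the genotypes. Values of single samples were not used, because their column names match no label, so that the spread between samples enters only through the SE. The direction of the fold change is not stated. Stk11, the floxed gene, had -1.34 ± 0.30 (SE) in the authors' deposited table (adjusted p = 0.000103), so that a negative sign below is the sign of Stk11, and genes are called negative or positive, at an adjusted p below 0.05, without being assigned to WT or KO. The libraries behind the authors' model are not named, so its p-values need not rest on 3 samples per genotype, and they measure only the spread between pools.

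The labelled cell type was checked on 10 ILC2 markers, whose means summed to 171900 normalized counts, with Gata3 at 44552 and Il5 at 5540 in the authors' deposited table. Markers of other cells were present as well: epithelial markers summed to 11470, B cell markers to 7370 and macrophage markers to 4740 normalized counts, and none of 34 such markers had a mean of 0. Of the 28 with an adjusted p, 24 lay below 0 and 4 above, where 50.4% of all genes with an adjusted p lay below 0. Of these 28, 6 were called, all negative, where 24.5% of all genes with an adjusted p were called in either direction and 13.5% negative. Of the ILC2 markers, Gata3 (0.63 ± 0.16) and Icos (0.54 ± 0.15) were positive and Il13 (-1.06 ± 0.18) and Klrg1 (-0.44 ± 0.12) negative in the authors' deposited table, and 6 were not called. Klrg1 was not called with trends on gene length and GC content taken out of the authors' values (adjusted p = 0.425). Areg (0.55) and Il7r (0.56), not called as deposited, were then positive (adjusted p = 0.00398 and 0.0344). Gata3, Icos and Il13 kept their calls. The erythroid genes Hba-a1, Hbb-bs and Alas2 had positive fold changes between 1.64 and 1.96 in the authors' deposited table, with no adjusted p. The part of these cells in the carrier values was not tested, and in such bulk samples fewer cells of a type and less RNA per cell cannot be told apart.

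An adjusted p was given for 38 of the 49 carriers, those with a mean of at least 22.15 normalized counts. Of these 38, 6 were called negative, 2 positive and 30 not called. The share called, 21.1%, lay near that of all 14961 genes with an adjusted p (24.5%) and of the protein-coding ones (26.0%), so that the number of calls is not a result about the family. By direction, 13.5% of all genes were called negative and 11.0% positive. Among genes with a mean of at least 100 normalized counts the shares were 24.2% of 33 carriers and 32.8% of all genes. The median log2 fold change of the 38 carriers was 0.03, beside -0.01 over all genes tested. Of the carriers, 16 lay below 0 (42.1%) and 22 above, where 50.4% of all genes tested lay below 0. At an unadjusted p below 0.05 there were 13 carriers, 8 negative and 5 positive. Carriers lay on both sides of 0, and the values below are those of single carriers.

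**Figure D1:**
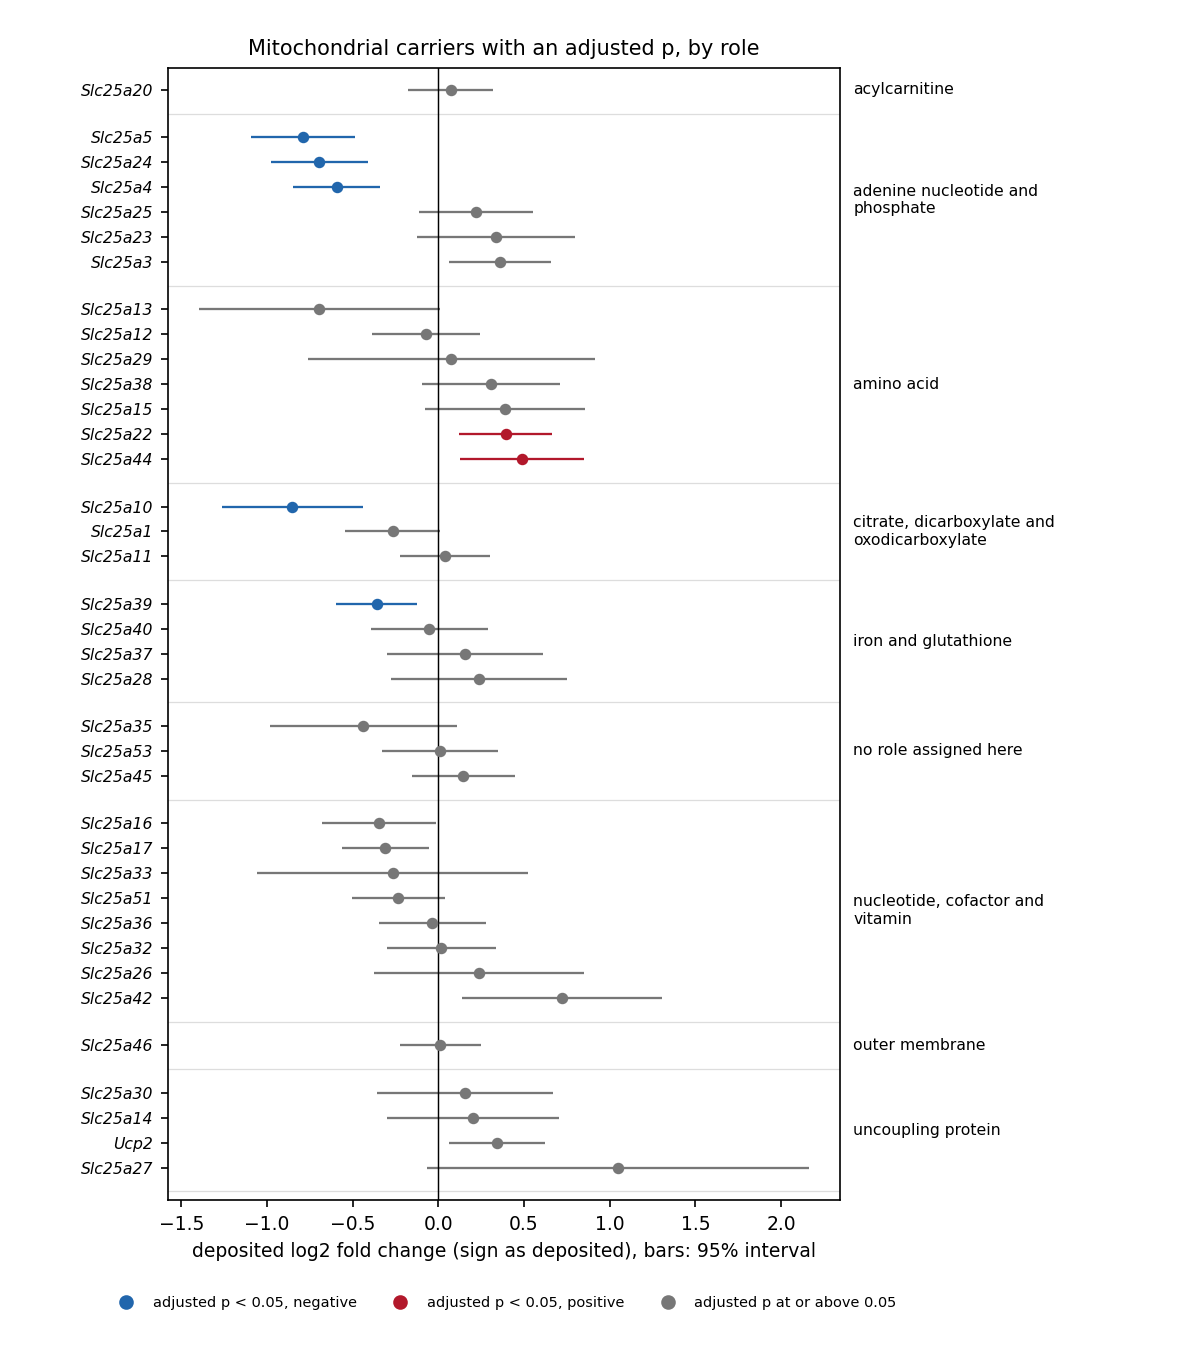
Deposited log2 fold change of the carriers reported here that have an adjusted p (horizontal axis, sign as deposited), grouped by the substrate each is known to move; points are the deposited values and bars their 95% intervals, in blue for those called negative, in red for the 2 called positive and in grey for the others. Calls lie in several of the role groups, and the ADP/ATP carriers Slc25a5 and Slc25a4 lie on the other side of 0 from the phosphate carrier Slc25a3, which was not called.

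The results turn on the adenine nucleotide and phosphate group, and above all on the ADP/ATP carriers Slc25a4 (ANT1) and Slc25a5 (ANT2), which exchange matrix ATP for cytosolic ADP. Since they are close paralogues, their coding sequences are shown first, as a picture of how far short reads can tell them apart. The first 100 coding bases of each, from the GENCODE M21 transcripts on mm10, are given 5′ to 3′ with the 25 differing positions in capitals.

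Slc25a4 (chr8:46210823-46210922, - strand): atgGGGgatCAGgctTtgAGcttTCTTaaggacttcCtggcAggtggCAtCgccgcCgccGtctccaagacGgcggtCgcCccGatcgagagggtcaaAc

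Slc25a5 (chrX:36795731-36795830, + strand): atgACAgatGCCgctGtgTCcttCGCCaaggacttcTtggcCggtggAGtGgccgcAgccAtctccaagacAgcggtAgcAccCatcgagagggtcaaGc

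Over the whole coding sequence of 894 bases the 2 genes were 77.4% identical, and their longest identical run was 20 bases, so that no stretch of 50 coding bases was common to them. Slc25a5 shared 63.6% of its 50-base coding stretches with transcripts of 9 other genes, against 0 for Slc25a4. Of these 9, 8 were in the table, each annotated as a processed pseudogene, with means between 0.264 and 12.0 normalized counts in the authors' deposited table. The largest of these means was 0.0839% of that of Slc25a5. The authors' treatment of reads that match several genes is not known, and reads of Slc25a5 that were dropped as ambiguous would lower its mean.

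Slc25a5 (ENSMUSG00000016319, mm10 chromosome X, 36795651 to 36798807) averaged 14336 normalized counts and had -0.79 ± 0.15 in the authors' deposited table (adjusted p = 8.42e-06), a 1.73-fold difference. Slc25a4 (ENSMUSG00000031633, chromosome 8, 46206797 to 46211284) had 3814 normalized counts and -0.59 ± 0.13 in the authors' deposited table (adjusted p = 7.6e-05). The paralogues carried the same sign, and their 95% intervals, -1.09 to -0.49 and -0.85 to -0.34, overlapped. The testis isoform Slc25a31 (ANT4) had a mean of 2.74 normalized counts and no adjusted p.

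The phosphate carrier Slc25a3, which brings in the phosphate that ATP synthase joins to ADP (ENSMUSG00000061904, chromosome 10, 91116574 to 91124059), had 20070 normalized counts and 0.36 ± 0.15 in the authors' deposited table (adjusted p = 0.0659). It did not pass the threshold, and its interval of 0.06 to 0.66 lay apart from those of Slc25a5 and Slc25a4. The difference between the genes was not tested, because the values of 2 genes of the same libraries are not independent and their covariance is not given.

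The ATP-Mg/phosphate carriers, calcium-regulated exchangers that set the matrix pool of adenine nucleotides, also had both signs. Slc25a24 (SCaMC-1; ENSMUSG00000040322, chromosome 3, 109123149 to 109168457) had 1298 normalized counts and -0.69 ± 0.15 in the authors' deposited table (adjusted p = 3.59e-05). Slc25a25 (SCaMC-2), at 1951, had 0.22 ± 0.17, and Slc25a23 (SCaMC-3), at 253.5, had 0.34 ± 0.24 in the authors' deposited table, and neither was called (adjusted p = 0.373 and 0.316). The coding sequences of Slc25a24 and Slc25a25 were 67.3% identical with a longest common run of 17 bases. Slc25a25 shared 14.0% of its 50-base coding stretches with Naif1 on the other strand. The mean of Naif1, 364 normalized counts in the authors' deposited table, was 18.7% of that of Slc25a25. Without strand information their reads in these stretches cannot be told apart. Slc25a41, a further relative, had a mean of 1.91 normalized counts. Of 6 members of the nucleotide and phosphate group with an adjusted p, 3 were thus negative and 0 positive. Over all genes with an adjusted p, 13.5% were called negative and 11.0% positive.

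To show the sequence around the starts of the most abundant members of this group, the 250 bases before the start site are given from RefSeq (GRCm38.p6), 5′ to 3′ on the strand of the gene, with CCAAT and the NRF1 motif, each on either strand, in capitals. NRF1 is a factor known to act on many genes of the respiratory chain.

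Slc25a5 (chrX:36795347-36795596, + strand): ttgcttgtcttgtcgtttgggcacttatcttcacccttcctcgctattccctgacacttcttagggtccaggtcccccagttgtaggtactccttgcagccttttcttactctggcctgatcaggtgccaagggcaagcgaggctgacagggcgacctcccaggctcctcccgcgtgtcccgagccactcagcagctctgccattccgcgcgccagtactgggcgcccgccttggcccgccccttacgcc

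Slc25a4 (chr8:46211063-46211312, - strand): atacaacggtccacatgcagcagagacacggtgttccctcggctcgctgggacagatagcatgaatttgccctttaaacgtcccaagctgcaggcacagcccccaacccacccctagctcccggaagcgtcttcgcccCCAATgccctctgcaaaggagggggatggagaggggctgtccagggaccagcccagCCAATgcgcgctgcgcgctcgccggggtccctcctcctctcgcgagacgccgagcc

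Slc25a3 (chr10:91123968-91124217, - strand): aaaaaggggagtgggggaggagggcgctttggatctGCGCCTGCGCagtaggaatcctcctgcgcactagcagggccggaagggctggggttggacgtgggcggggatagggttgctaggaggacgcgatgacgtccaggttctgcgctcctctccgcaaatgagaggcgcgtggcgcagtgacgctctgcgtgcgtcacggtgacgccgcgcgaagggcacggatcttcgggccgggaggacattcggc

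Slc25a4 held 2 CCAAT boxes, Slc25a3 held 1 NRF1 motif and Slc25a5 held neither in these windows. RefSeq windows of 300 bases, from 250 before to 50 after the start, were found for 38 carriers (48 windows). Besides these motifs, the ETS motif CCGGAAGT, the E-box CACGTG, the CRE TGACGTCA and the ERR motif TCAAGGTCA were searched on both strands. The NRF1 motif lay in 2 of the 48 windows, those of Slc25a3 and Slc25a31. It lay in 4.6% of all 32851 windows and in 9.44% of the 12801 windows of protein-coding genes with an adjusted p. The E-box lay in 8 windows (7.15% of all and 9.45% of tested genes' windows), CCAAT in 22 (37.4% of both), the CRE in 2 (1.79% and 3.02%), the ETS motif in 1 (3.89% and 7.48%) and the ERR motif in 0 (0.423% and 0.242%). Of 5 negative carriers with a window, 2 held CCAAT and 0 any other motif. The windows therefore showed no motif common to the negative carriers among those searched, which says only that these letters are not there.

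Among carriers of organic acids, Slc25a10, the dicarboxylate carrier that exchanges malate and succinate for phosphate, was negative. It (ENSMUSG00000025792, chromosome 11, 120491840 to 120499187) had 401.4 normalized counts and -0.85 ± 0.21 in the authors' deposited table (adjusted p = 0.000567), a 1.81-fold difference. An antisense gene on the other strand, Gm11788, covers 6.6% of its exonic length and had a mean of 1.02 normalized counts in the authors' deposited table. Slc25a11, the oxoglutarate/malate carrier of the malate-aspartate shuttle had 2671 normalized counts and 0.04 ± 0.13 in the authors' deposited table, with a 95% interval of -0.22 to 0.30. Slc25a1, which exports the citrate used for fatty acid synthesis, had 872 normalized counts and -0.27 ± 0.14 in the authors' deposited table (adjusted p = 0.165). Slc25a21, the oxodicarboxylate carrier, had a mean of 6.51 and no adjusted p. Of 3 members tested, 1 was negative and 0 positive, beside 13.5% negative and 11.0% positive over all genes with an adjusted p.

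Values of the carriers of nucleotides, cofactors and vitamins had both signs. Slc25a17, a carrier of the peroxisome, had -0.31 ± 0.13 in the authors' deposited table (adjusted p = 0.0647). Slc25a42, which imports coenzyme A, had 0.72 ± 0.30 at only 112 normalized counts in the authors' deposited table (adjusted p = 0.0596), and Slc25a16, also tied to coenzyme A, had -0.35 ± 0.17 (adjusted p = 0.124). The NAD carrier Slc25a51, at 1953 normalized counts, had -0.23 ± 0.14 in the authors' deposited table (adjusted p = 0.228). The folate/FAD carrier Slc25a32 and the pyrimidine nucleotide carrier Slc25a36 lay close to 0, at 0.02 ± 0.16 and -0.03 ± 0.16 in the authors' deposited table. Slc25a36 shared 69.3% of its 50-base coding stretches with the pseudogene Gm13217, whose mean of 12.4 normalized counts in the authors' deposited table was 0.735% of its own. As for Slc25a5, reads dropped as ambiguous would lower its mean. Slc25a33, the other pyrimidine carrier, and Slc25a26, which imports the methyl donor S-adenosylmethionine, had -0.27 ± 0.40 and 0.24 ± 0.31 in the authors' deposited table, errors too wide to place them.

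Both positive carriers were in the amino acid group. Slc25a22, which takes glutamate into the matrix with a proton (ENSMUSG00000019082, chromosome 7, 141429744 to 141437892), had 723 normalized counts and 0.39 ± 0.14 in the authors' deposited table (adjusted p = 0.0231). Slc25a44, a carrier of branched-chain amino acids (ENSMUSG00000050144, chromosome 3, 88410498 to 88425139), had 414 normalized counts and 0.49 ± 0.18 in the authors' deposited table (adjusted p = 0.0362). Both differences were small, at 1.31-fold and 1.40-fold. With the authors' p-values adjusted over every gene that has one, neither passed (adjusted p = 0.0599 and 0.0931), and Slc25a22 was not called once trends with length and GC content were taken out (adjusted p = 0.198).

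The aspartate/glutamate carriers of the malate-aspartate shuttle, which bind calcium, were not called. Slc25a12 (aralar), at 1266 normalized counts, had -0.07 ± 0.16, and Slc25a13 (citrin), at 89.8, had -0.70 ± 0.36 in the authors' deposited table (adjusted p = 0.797 and 0.15). The ornithine carrier Slc25a15 had 0.39 ± 0.24, the glycine carrier Slc25a38, needed for heme synthesis, 0.31 ± 0.21, and the basic amino acid carrier Slc25a29 0.08 ± 0.43 in the authors' deposited table. Counted together, 2 of 7 members with an adjusted p were positive and 0 negative. The shares over all genes with an adjusted p were 11.0% positive and 13.5% negative. Slc25a2 and Slc25a18, with means of 8.26 and 4.22 normalized counts, had no adjusted p.

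Of the glutathione carriers, Slc25a39 was negative, at 1609 normalized counts and -0.36 ± 0.12 in the authors' deposited table (adjusted p = 0.017). It lies on chromosome 11, 102402985 to 102407946 (ENSMUSG00000018677), and its difference was 1.28-fold. Its paralogue Slc25a40, at 310.7 normalized counts, had -0.05 ± 0.17 in the authors' deposited table (adjusted p = 0.868), with an interval of -0.39 to 0.29 that holds the value of Slc25a39. Slc25a40 shared 29.3% of its 50-base coding stretches with the pseudogene Gm5066. The mitoferrins, which import iron for heme and iron-sulfur clusters, were not called: Slc25a37 had 0.16 ± 0.23 and Slc25a28 0.24 ± 0.26 in the authors' deposited table. Slc25a37 and Slc25a38 are also used by erythroid cells, whose markers above were positive without a p-value.

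The uncoupling protein Ucp2, an abundant carrier of immune cells, had 23233 normalized counts and 0.34 ± 0.14 in the authors' deposited table (adjusted p = 0.0651). Its 95% interval was 0.06 to 0.62, and it did not pass the threshold. Ucp2 lies on chromosome 7, 100493337 to 100502020 (ENSMUSG00000033685), and 4.36% of its exonic length is shared with Dnajb13 on the other strand. Its relatives Slc25a27, Slc25a14 and Slc25a30 stood at 1.05 ± 0.57, 0.20 ± 0.26 and 0.16 ± 0.26 in the authors' deposited table without a call. Ucp3, the muscle form, had 3.96 ± 1.25 in the authors' deposited table, with an unadjusted p of 0.00151 and no adjusted p, at a mean of 7.77 normalized counts. A value this large at so few counts is poorly determined, with an interval of 1.51 to 6.40, and whether 1 library carries it was not tested.

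The remaining carriers with a measured role were close to 0. Slc25a20, which exchanges carnitine and acylcarnitines for fatty acid oxidation, had 1286 normalized counts and 0.07 ± 0.13 in the authors' deposited table. Slc25a46, an outer membrane member tied to mitochondrial shape, had 1858 and 0.01 ± 0.12 in the authors' deposited table. Slc25a45, Slc25a53 and Slc25a35, given no role here, stood at 0.15 ± 0.15, 0.01 ± 0.17 and -0.44 ± 0.28 in the authors' deposited table. For Slc25a35, 31.3% of the exonic length is shared with Rangrf on the other strand, and without strand information the reads of the 2 genes cannot be told apart. The 95% interval lay within 0.5 of 0 for 9 carriers (Slc25a11, Slc25a12, Slc25a20, Slc25a32, Slc25a36, Slc25a40, Slc25a45, Slc25a46 and Slc25a53). These intervals cover the error of the fit only, not the assignment of reads that Slc25a36, Slc25a40 and Slc25a46 share with other genes. The same holds for the 8.92% of exonic length that Slc25a11 shares with Rnf167 on the other strand. Of the 11 carriers without an adjusted p, with means between 0.656 and 10.36 normalized counts, Slc25a34, Slc25a43, Slc25a47, Slc25a48 and Slc25a54 are those not named above.

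Levels were compared between carriers only per length, as the mean normalized count divided by the length of all annotated exons. On this scale Slc25a5 held 36.1%, Slc25a3 15.0% and Ucp2 13.8% of the summed level of the 49 carriers, followed by Slc25a4 (6.71%) and Slc25a11 (5.22%). The 3 highest thus held 64.8% of the family's level, and the same 5 genes led in another setting, chosen after the data were seen, that divides by the length of the transcript with the longest coding sequence. There Slc25a3 came first with 33.6%, then Slc25a5 with 25.9% and Ucp2 with 13.1%, so that the order of Slc25a5 and Slc25a3 depends on the length used. How far these levels differ between samples cannot be given from the comparison alone.

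**Figure D2:**
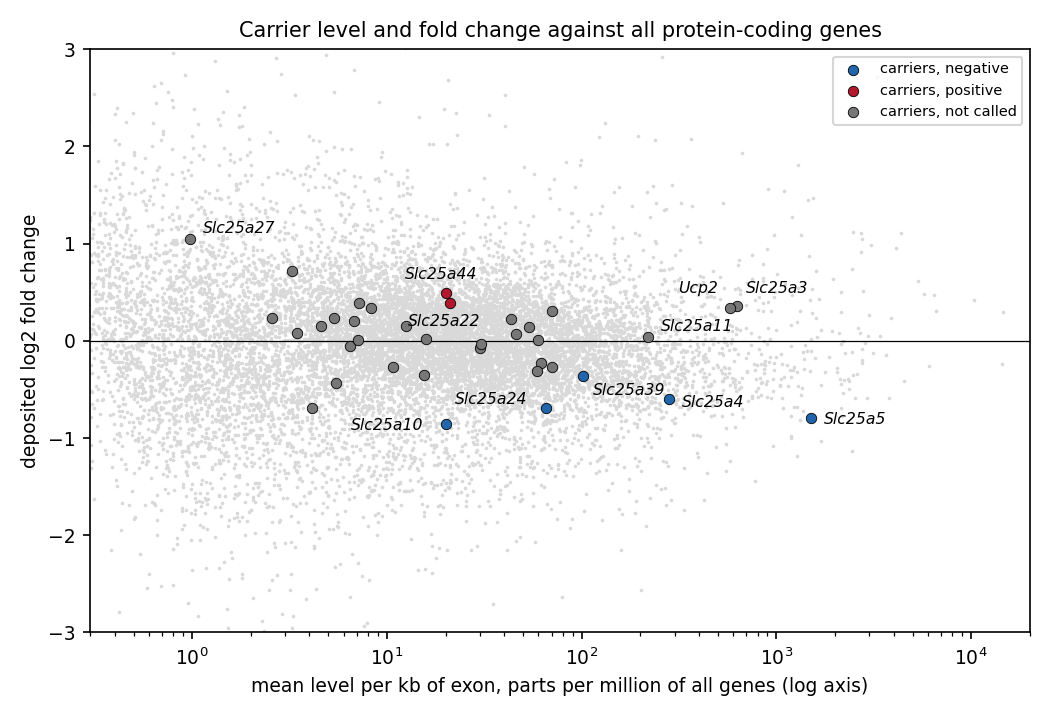
Mean level per kb of exon, scaled to the sum over all genes (horizontal log axis), against the deposited log2 fold change (vertical axis, shown from -3 to 3) for protein-coding genes with an adjusted p (light grey) and for the carriers reported here (blue negative, red positive, dark grey not called). Slc25a5 has the highest level of the carriers and lies at -0.79, while Slc25a3 and Ucp2, next in level, lie at 0.36 and 0.34 without passing the threshold.

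Longer genes had higher fold changes: Spearman's rho was 0.263 across 13036 protein-coding genes and 0.327 across the 38 carriers, values that describe genes of the same libraries and carry no test. The 6 negative carriers had a median exonic length of 3093 bases, beside 4298 over the 38 carriers. With lowess trends on length and GC content removed and the SEs of the authors kept, these 6 stayed negative past the threshold: Slc25a5 went from -0.79 to -0.54 (adjusted p = 0.0041), Slc25a4 from -0.59 to -0.46 (0.00356) and Slc25a24 from -0.69 to -0.56 (0.00121). Slc25a10 moved little, to -0.88 (0.00038), and Slc25a39 went to -0.33 (0.03). Ucp2 fell to 0.20 (adjusted p = 0.334), whereas Slc25a3 stayed at 0.37 (0.0628). These trends used the length of all annotated exons, 5550 bases for Slc25a3 and 1646 for Slc25a5. Their transcripts with the longest coding sequence had 1341 and 1240 bases, and a trend on that length was not tested. What lies behind the trend with length was not tested.

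**Figure D3:**
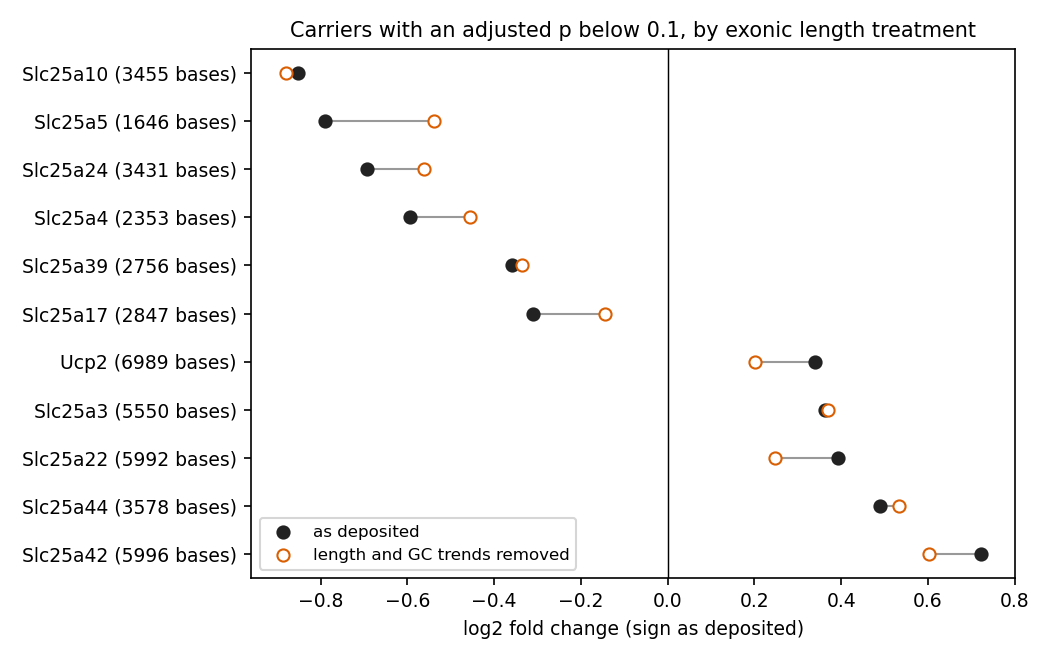
Log2 fold change (horizontal axis, sign as deposited) of the carriers reported here with an adjusted p below 0.1, as deposited (filled) and after removal of the trends with exonic length and GC content (open), with the exonic length of each gene in brackets. Slc25a5, with 1646 exonic bases, moves from -0.79 to -0.54, and each carrier keeps its sign. Exonic length here covers all annotated exons.

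The other genes of mitochondrial transport came from 11 lists with 65 genes, of which 60 had an adjusted p. Of these, 19 were negative and 3 positive, which makes 36.7% called beside 24.5% of all genes, and their median was -0.22. Of the 60, 54 had a mean of at least 100 normalized counts, and of these 38.9% were called, beside 32.8% of all genes at such means. The lists were written with earlier results of these data known, and no test of a list was made. The voltage-dependent anion channels, through which carrier substrates cross the outer membrane, were negative in 3 of 3: Vdac1 had -0.58 ± 0.16, Vdac2 -0.53 ± 0.13 and Vdac3 -0.64 ± 0.16 in the authors' deposited table (adjusted p = 0.00219, 0.000875 and 0.000504). Mtch1 and Mtch2, outer membrane relatives of the carriers that fall outside the naming rule, were negative in 2 of 2, at -1.14 ± 0.39 and -0.45 ± 0.15 in the authors' deposited table. Of 9 tested genes of the TIM22 pathway, the import route that inserts carriers into the inner membrane, 4 were negative and 0 positive. Over all genes, 13.5% were called negative. The 4 included Timm8a1 at -1.07 ± 0.26, Timm13 at -0.50 ± 0.15 and Tomm70a at -0.43 ± 0.15 in the authors' deposited table. Timm22 itself had -0.41 ± 0.17 and was not called (adjusted p = 0.0555), nor were Timm10, Timm10b, Timm8b and Agk. With length and GC trends taken out and the authors' SEs kept, Timm13 and Timm9 were not called (adjusted p = 0.123 and 0.0723), which left Timm8a1 and Tomm70a.

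Enzymes that work beside the carriers were measured as well. In the malate-aspartate and glycerophosphate shuttles 2 of 5 tested enzymes were negative, beside 13.5% of all genes with an adjusted p. Both act in the matrix: Mdh2 had -0.75 ± 0.16 and Got2 -0.56 ± 0.16 in the authors' deposited table. Their cytosolic partners Mdh1 and Got1 had -0.09 ± 0.13 and -0.33 ± 0.16 and were not called (adjusted p = 0.663 and 0.132). The remaining enzyme tested, the mitochondrial Gpd2, had 0.20 ± 0.15 in the authors' deposited table and was not called (adjusted p = 0.358). Whether matrix and cytosolic enzymes differ was not tested. Of 15 iron-sulfur and heme enzymes, which use the iron and glycine that carriers bring in, 4 were negative and 2 positive. Among all genes with an adjusted p, 13.5% were negative and 11.0% positive. The glutaredoxin gene Glrx5, which takes part in iron-sulfur cluster assembly, had -0.75 ± 0.15 in the authors' deposited table. Cpox was also negative, at -0.89 ± 0.26 (adjusted p = 0.0049), while Uros had 0.62 ± 0.21 in the authors' deposited table. Ppox, at 0.55 ± 0.22 (adjusted p = 0.0486), was not called with the trends taken out of the authors' values (adjusted p = 0.0595). The pyruvate carrier genes Mpc1 and Mpc2 (-0.43 ± 0.18 and -0.04 ± 0.14 in the authors' deposited table) and 4 tested genes of the carnitine shuttle enzymes had no call.

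Single members of the other lists were called, where 13.5% of all genes with an adjusted p were negative and 11.0% positive. Sfxn1, a serine transporter, was the 1 negative of 5 sideroflexins, at -0.74 ± 0.18 in the authors' deposited table. In the calcium uniporter list, with 8 genes tested, the regulator Smdt1 (EMRE) was negative at -0.72 ± 0.14 and the sodium/calcium exchanger Slc8b1 positive at 0.78 ± 0.21, while the pore Mcu had 0.06 ± 0.15 in the authors' deposited table. The transporter Abcb8 was negative at -0.53 ± 0.17 in the authors' deposited table, 1 of 3. Of 4 genes of citrate use in the cytosol, malic enzyme Me1 was negative at -1.25 ± 0.50 in the authors' deposited table (adjusted p = 0.0481). It was not called with the trends taken out of the authors' values (adjusted p = 0.0754). Acly, which splits the citrate that Slc25a1 exports, had 0.13 ± 0.16 in the authors' deposited table and was not called.

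**Figure D4:**
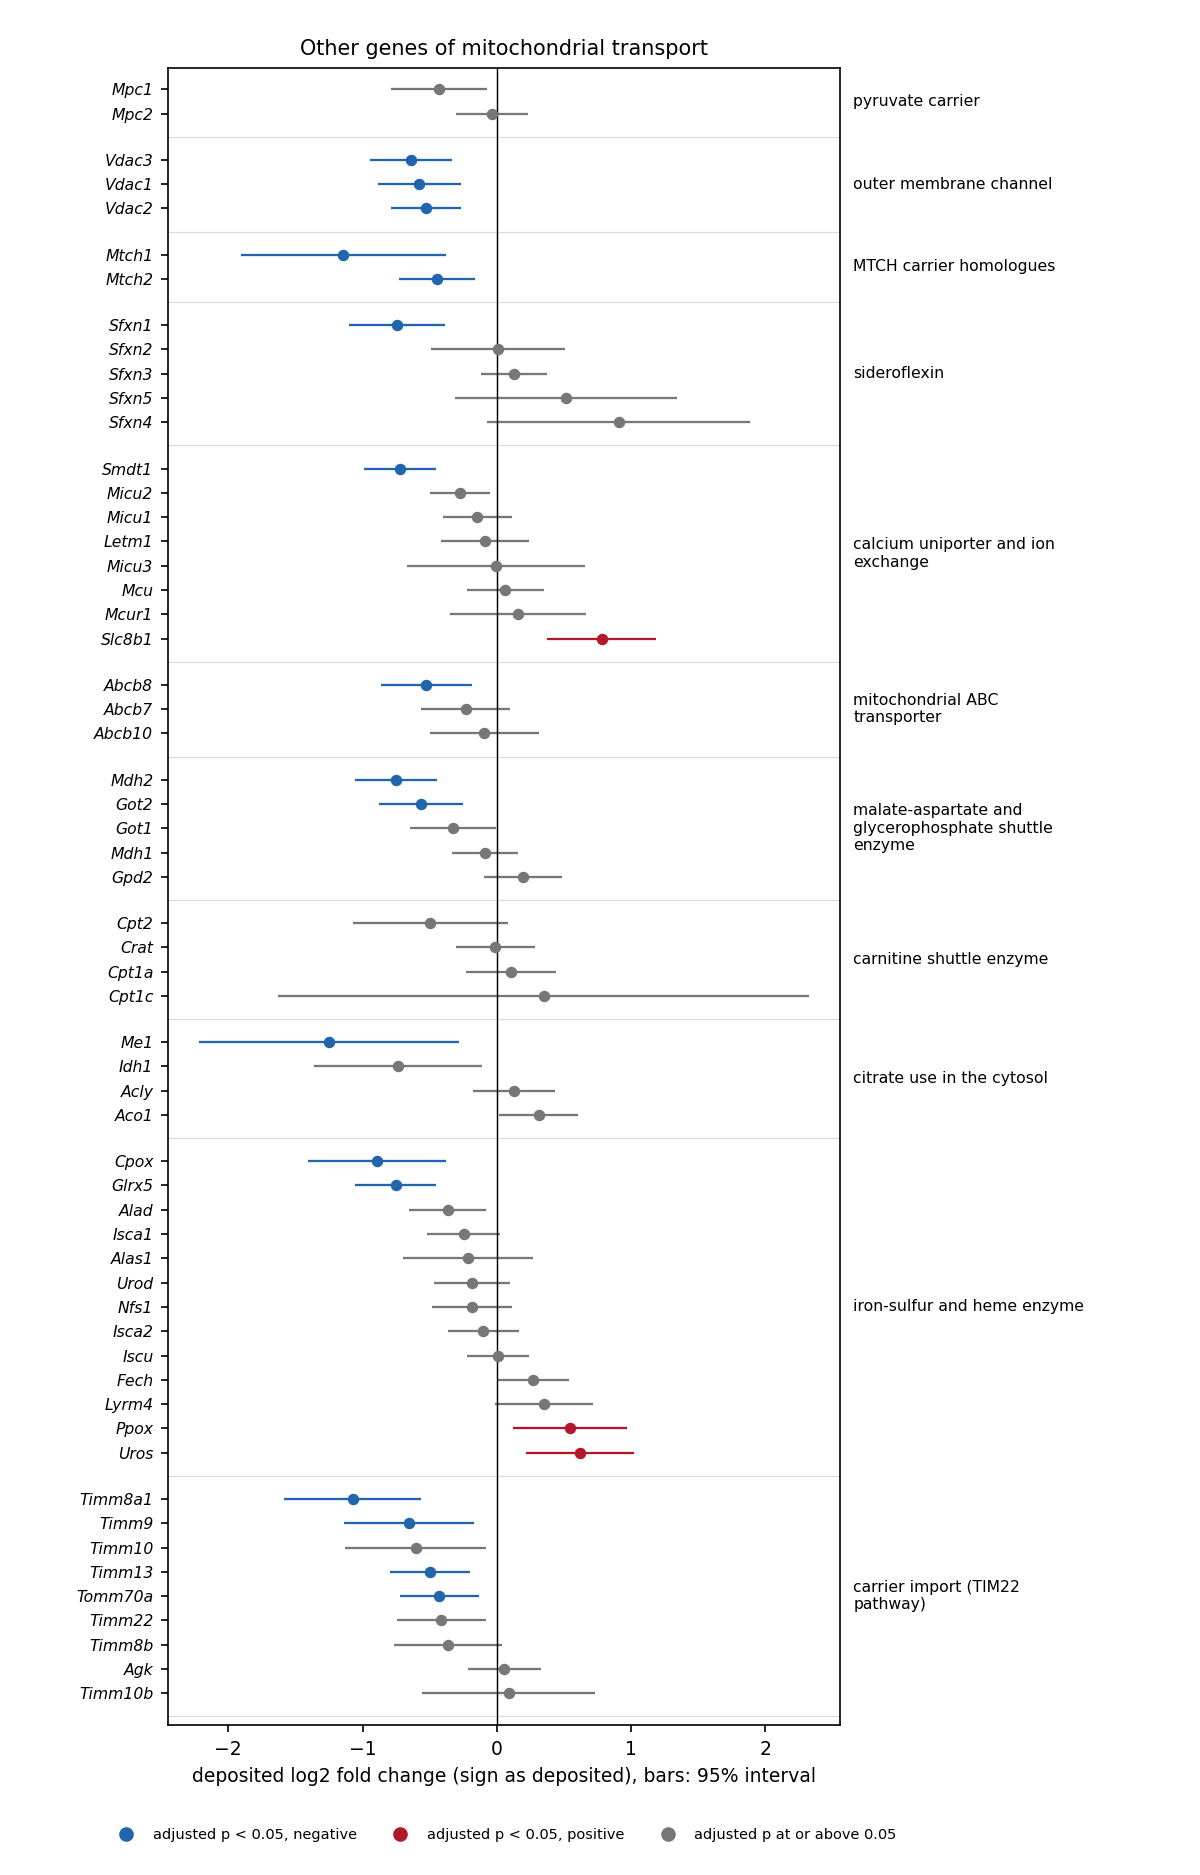
Deposited log2 fold change (horizontal axis, sign as deposited) with its 95% interval for genes of 11 lists on mitochondrial transport that are reported here, in blue for those called negative, in red for the 3 called positive and in grey for the others. The 3 outer membrane channels lie together between -0.64 and -0.53, and the positive calls are Slc8b1, Ppox and Uros.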

How the data were processed

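RNA was sequenced from 6 pooled samples of sorted lung ILC2s, 3 WT and 3 KO. Per the labels' protocols, the SMART-Seq HT kit made full-length cDNA and a TruePrep kit the libraries. HISAT2, Cufflinks and the mm10 build are named, per the submitters' processing notes. The sources used here do not give how genes were counted, with which annotation or whether by strand. Per the file headers, whose names are those of a DESeq2 results table, the authors deposited a signal (the mean of normalized counts), a log2 fold change and its SE. They also deposited, per the file headers, a test score, its p-value and that p adjusted. Values of single samples fill 12 more columns under 6 names that match no label. They were not used, and depth per sample is not reported here.

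The members, role groups and lists were chosen with earlier results of these data known. The threshold was an adjusted p below 0.05 in the authors' fit over all genes, and 95% intervals are normal intervals from the deposited standard error. Named genes were every member with an adjusted p below 0.1, the most abundant of each role group, and up to 3 called genes per related list in order of p; further genes were named after their values were seen. Some results that this rule would name are not reported here, in the text or the figures, though the counts include them. The related symbols Mcub and Timm29 were not matched in the table. Coordinates, exon lengths, coding sequences and GC content came from GENCODE M21 (mm10), which held 39191 gene identifiers (99.15%) and all 49 members. Lowess trends (span 0.3) on log2 exonic length and then GC content were removed over protein-coding genes, with the standard errors kept. The calls and the trend removal were run on simulated data with noise drawn from the deposited standard errors. Such a run checks the code, not the authors' counts or model. Python 3.11.15, pandas 2.3.3, scipy 1.17.1, statsmodels 0.14.6 and Biopython 1.88 were used. Alternatives changed the genes over which p was adjusted, the threshold, a minimum fold or mean, the centring and the trends.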

Additional observations from a re-analysis of the deposited data

How the results depend on the processing

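No paired analysis was possible because the comparison has 1 value per gene and the columns of single samples match no label; for the same reason the edgeR and DESeq2 fits and those leaving out each replicate were not run. The 6 negative calls of carriers (Slc25a5, Slc25a4, Slc25a24, Slc25a10 and Slc25a39 among them) were called under each of 4 alternatives: p adjusted over every gene with a p, p adjusted over protein-coding genes, length and GC trends removed, and centring on the 25% most abundant genes. The 2 positive calls were less firm. The count of positive carriers was 1 with p adjusted over every gene (Ucp3, at an adjusted p of 0.0253 from the authors' p-values, with 0 left in the amino acid group), 1 with the trends removed (also 1 in the amino acid group), and 5 with centring, which subtracts a median of -0.04, where Slc25a3, Ucp2 and Slc25a42 passed. At an adjusted p below 0.01 the carriers called were 5, with 0 positive, 0 in the amino acid group and 0 negative in the iron and glutathione group, and 1 positive related gene. At an adjusted p below 0.1, 5 carriers were positive and 2 of the cofactor group negative. With at least a 1.5-fold difference 5 carriers were called, with 0 positive, 0 in the amino acid group and 0 in the iron and glutathione group, and 12 related genes were negative. Stricter or looser thresholds pass fewer or more genes by construction; for the trends and the centring the cause was not tested. The median over the carriers, 0.03, was 0.121 over all members with a p-value, 0.0125 at a mean of at least 100, 0.0526 with the trends removed and 0.0661 with centring, and the mean weighted by the inverse squared SE was -0.0966. The spread of such a value between samples is not known here, and its sign turned in the weighted mean. The 38 tested carriers had SEs between 0.121 and 0.57, so that small differences in carriers of low mean were not detectable.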
